A study of Mus musculus with 2 samples.

Results

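The 10 genes described here encode proteins of the piRNA pathway of the mouse, a group in which many members carry Tudor domains. They were taken by symbol from the table of FPKM values (fragments per kilobase of exon, scaled to a total for each library) and are Mael, Piwil2, Piwil4, Mov10l1, Tdrkh, Tdrd1, Tdrd7, Tdrd12, Asz1 and Pld6. All 10 were found among the 28839 genes of the table, and 8 of them reached an FPKM of 1 in at least 1 library, as did 14345 genes in all. The choice by symbol used no measured value, but the list was drawn up with results of these libraries known, and Mael, Tdrkh and Piwil4 were among the genes that the study itself selected as changed on these same libraries, so their direction is not independent evidence.

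PIWI proteins are Argonaute-like proteins of the germline that bind small RNAs called piRNAs and use them to silence transposons. Long precursor RNAs are cut at the surface of mitochondria, loaded onto PIWI proteins and trimmed, and the loaded proteins then cleave transposon RNA in the cytoplasm or direct DNA methylation of transposons in the nucleus of male fetal germ cells. Tudor domains bind methylated arginines, which PIWI proteins carry near their start, and Tudor proteins thereby hold the pathway together in granules of germ cells. Several of these genes are expressed mainly in the germline, although others are also found in somatic tissues, and some are among the germline genes whose promoters are held by DNA methylation and by a Polycomb complex in mouse embryonic stem cells (mESCs).

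RNA came from mESCs of the line Sv129, grown in medium with fetal bovine serum and leukemia inhibitory factor. One thawed culture was divided at random into a control given folate at 4 mg/L (FA4) and a folate-deficient culture given 0 mg/L (FA0), and each condition has 1 library. The comparison asks how the RNA level of each gene differed in folate-deficient mESCs. Since neither condition was repeated, the spread between cultures is unknown and p-values are not given.

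Reads were recovered from the FPKM and gene lengths and came to 19534465 in FA4 and 18367718 in FA0, summed over the genes. The 95% intervals given below come from these reads and account for counting error alone. All 8 embryonic stem cell markers were expressed, at FPKM of 135 to 824 in FA4 and 108 to 480 in FA0. All 8 were lower in FA0, with a summed FPKM of 3053 against 2307. Their median change (log2, defined below) was -0.26. The 478 genes with a mean FPKM of at least 100, the level of all 8 markers, had a median change of -0.20. The 7 germ cell markers were all detected in both libraries (Ddx4, Dazl, Dppa3, Prdm1, Nanos3, Tfap2c and Kit), and their summed FPKM was 77.3 in FA4 and 66.2 in FA0. They went both ways, with Ddx4, Dazl, Tfap2c and Kit below 0 and Dppa3, Prdm1 and Nanos3 above, and a median change of -0.06. Of 6 fibroblast markers in the table, Col3a1, Lum and Postn were at 0 in FA4, and Thy1 was the only one above an FPKM of 1. The 6 primitive endoderm markers summed to 6.99 FPKM in FA4 against 3.87 in FA0, and Gata6 among them was measured at 2.58 FPKM in FA4 and at 0.778 in FA0. Gata4, Sox17, Pdgfra and Dab2 were also lower in FA0, while Foxa2 was higher, at 0.202 and 0.405. Sox17, Pdgfra and Foxa2 stayed below an FPKM of 1 in both libraries. The part of these marker differences in the results below was not tested. In bulk RNA, fewer cells of a type and less RNA per cell cannot be told apart.

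Start-site sequences are shown for 4 genes because they hold a motif that can be read beside the direction of each gene. The E-box CACGTG, which reads the same on both strands, was found in the RefSeq promoters (GRCm38.p6, from 250 bases before to 50 after the annotated start) of Mael, Mov10l1, Tdrd1 and Pld6. Each stretch below is the part upstream of the start in both RefSeq and GENCODE, 5′ to 3′ on the strand of the gene, in lower case with the E-box in capitals. In Mael the letters TCCCGC, the reverse complement of GCGGGA that occurs in sites of the E2F family, are also in capitals. The stretches lie at chr1:166238748-166238994 on the minus strand for Mael, chr15:88982744-88982908 on the plus strand for Mov10l1, chr19:56825959-56826208 on the plus strand for Tdrd1 and chr11:59787658-59787907 on the minus strand for Pld6.
Mael: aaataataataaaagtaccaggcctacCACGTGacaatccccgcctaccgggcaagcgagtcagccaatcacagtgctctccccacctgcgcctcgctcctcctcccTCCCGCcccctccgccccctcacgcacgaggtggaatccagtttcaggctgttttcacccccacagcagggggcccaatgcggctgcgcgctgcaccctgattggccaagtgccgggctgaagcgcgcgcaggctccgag
Mov10l1: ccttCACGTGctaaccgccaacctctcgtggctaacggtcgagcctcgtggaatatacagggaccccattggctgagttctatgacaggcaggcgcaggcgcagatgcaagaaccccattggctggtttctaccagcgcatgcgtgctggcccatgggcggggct
Tdrd1: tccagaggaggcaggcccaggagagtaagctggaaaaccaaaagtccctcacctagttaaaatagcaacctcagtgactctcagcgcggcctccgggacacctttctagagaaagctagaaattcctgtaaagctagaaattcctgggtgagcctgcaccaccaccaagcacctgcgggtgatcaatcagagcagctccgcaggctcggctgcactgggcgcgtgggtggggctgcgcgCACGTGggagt
Pld6: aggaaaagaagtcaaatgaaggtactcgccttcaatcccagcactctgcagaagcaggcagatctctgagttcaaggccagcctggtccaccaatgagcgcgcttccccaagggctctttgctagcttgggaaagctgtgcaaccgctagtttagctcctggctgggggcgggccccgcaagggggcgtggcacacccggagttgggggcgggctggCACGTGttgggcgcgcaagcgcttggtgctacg

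For the 5 genes with several RefSeq promoters (Piwil4, Tdrd1, Tdrd7, Tdrd12 and Pld6), the one nearest to the GENCODE start of the gene was used. The E-box began 223 bases upstream of the RefSeq start of Mael, 246 upstream of that of Mov10l1, 11 upstream in Tdrd1 and 33 upstream in Pld6. It was present in 4 of the 9 genes of the group matched in the RefSeq table, where Piwil2 was not matched, against 7.15% of all 32851 promoters of the same length. Among the 16998 promoters with 4 to 25 CpG, the range of the 9 genes, the share was 8.40%. The 4 genes went in both directions, since Mael, Mov10l1 and Tdrd1 were lower in FA0 and Pld6 was higher. The letters GCGGGA on either strand were found in Mael alone of the 9, at 143 bases upstream and again 11 bases past the start, against 19.98% of all promoters. Both matches in Mael overlapped a GC box, GGGCGG on either strand. The GC box was found in 6 of 9 genes and in 35.7% of all promoters, and AACTG on either strand, the core of MYB sites, in 4 of 9 and in 44.8%. Tdrkh and Piwil4, which had the lowest ratios of FA0 to FA4, held neither the E-box nor GCGGGA in these 300 bases, nor did the other RefSeq promoter of Piwil4. Counted over every RefSeq promoter of the 9 genes, the E-box was again found in 4 genes and GCGGGA in 1, while the GC box was found in 7 and AACTG in 5. The 9 promoters held 4 to 25 CpG in 300 bases, with a median of 18 against 7 over all promoters. Mael had 24 and Tdrkh 25. Tdrd7 had 4 at the start used, and up to 32 at another of its 3 RefSeq promoters. A match of letters is a description and not a site of binding.

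Mael, Piwil2, Mov10l1, Asz1, Pld6 and Tdrd12 stood at 4.81 FPKM or more in both libraries, and Tdrkh, Piwil4, Tdrd7 and Tdrd1 at 1.34 or less. In FA4 the order of FPKM from the highest was Mael, Piwil2, Mov10l1, Asz1, Pld6, Tdrd12, Tdrkh, Piwil4, Tdrd7 and Tdrd1. Asz1, Pld6 and Tdrd12 lay next to each other with overlapping counting intervals, as did each of the neighbours from Tdrkh to Tdrd1. In FA0 the order was Piwil2, Tdrd12, Pld6, Mael, Mov10l1, Asz1, Tdrd7, Tdrkh, Piwil4 and Tdrd1. The intervals of Tdrd12 and Pld6, of Pld6 and Mael and of Mael and Mov10l1 overlapped, and so did those of Tdrkh, Piwil4 and Tdrd1. Mael thus moved from the first to the fourth place, and Tdrd12 from the sixth to the second. Among all genes of the table Mael stood at percentile 89.0 in FA4 and 75.04 in FA0, whereas Piwil2 stood at 87.1 and 84.1. The summed FPKM of the 10 genes was 67.1 in FA4 and 49.2 in FA0. Relative to the scaling total of each library, their summed reads in FA0 were 0.768 times those in FA4 (0.733 to 0.804).

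**Figure D1:**
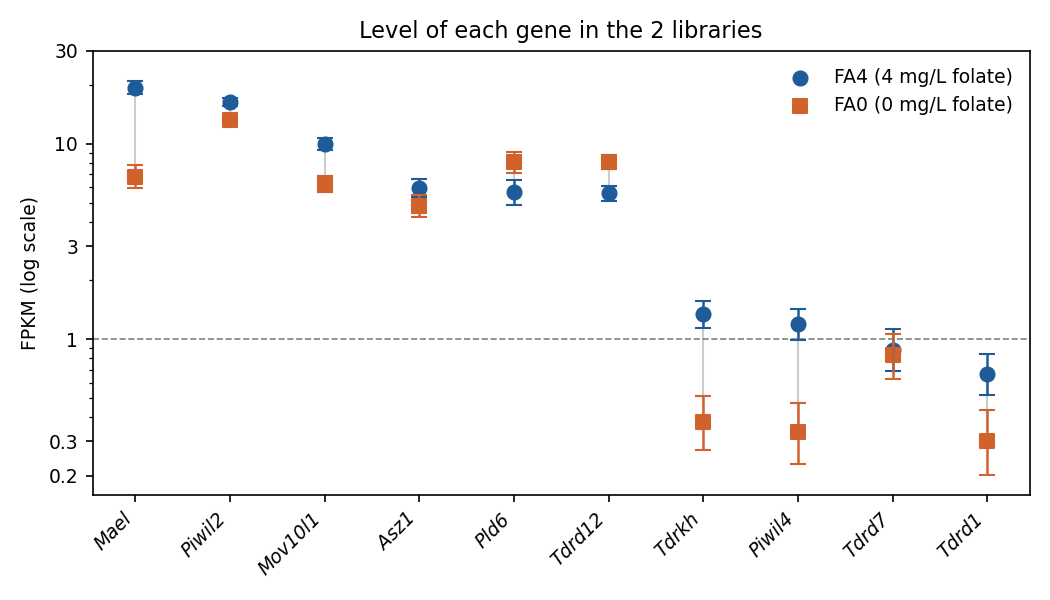
FPKM of each of the 10 genes (log axis) in FA4 (blue circles) and FA0 (orange squares), 1 library each, with bars for the 95% Poisson counting interval and a dashed line at FPKM 1. Mael, at 19.5 and 6.81, has the widest gap among the genes above the dashed line in both libraries, Pld6 and Tdrd12 are the genes with the square above the circle, and the 2 symbols of Tdrd7 nearly coincide.

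Of the PIWI genes, Piwil2 was well expressed and Piwil4 was scarce, and both were lower in FA0. Piwil2 (MILI, which binds piRNAs in fetal and adult germ cells, ENSMUSG00000033644, chromosome 14 from 70372477 to 70429383 in mm10) reached 16.4 FPKM in FA4 as against 13.3 in FA0, from 1631 and 1248 reads. The ratio of FA0 to FA4 was 0.813 (0.754 to 0.876). Piwil4 (MIWI2, which directs DNA methylation of transposons in male fetal germ cells, ENSMUSG00000036912, chromosome 9 from 14696230 to 14740733) stood at 1.19 FPKM in FA4 against 0.336 in FA0, from 121 and 32 reads. It was 3.56-fold lower (2.39 to 5.43), so that Piwil2 exceeded Piwil4 by 13.7 times within FA4 and by 39.7 times within FA0. Piwil1 (MIWI, the PIWI protein of later spermatogenesis and not one of the 10 genes) was measured at 0.305 FPKM in FA4 and at 0.544 in FA0, from 25 and 42 reads. The FPKM of Piwil2 and Piwil4 together was 17.6 in FA4 and 13.7 in FA0, of which Piwil2 held 93.2% and 97.5%.

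Of the factors that make piRNAs, those for the precursor went in different directions. Mov10l1 (an RNA helicase that binds piRNA precursors, ENSMUSG00000015365, chromosome 15 from 88982909 to 89055152) reached 10.004 FPKM in FA4 as against 6.25 in FA0, from 787 and 463 reads, and was 1.60-fold lower (1.42 to 1.80). Pld6 (the mitochondrial nuclease called Zucchini in Drosophila, which cuts the precursor, ENSMUSG00000043648, chromosome 11 from 59783897 to 59787645) stood at 5.66 FPKM in FA4 against 8.07 in FA0, from 187 and 251 reads, with a ratio of 1.43 (1.18 to 1.73). Asz1 (GASZ, a scaffold on the outer mitochondrial membrane, ENSMUSG00000010796, chromosome 6 from 18050964 to 18109061) was measured at 5.96 FPKM in FA4 and at 4.81 in FA0, from 317 and 241 reads, and was 1.24-fold lower (1.04 to 1.47). Pld6 and Asz1 act at the same membrane, and Pld6 stood at 0.9498 times Asz1 within FA4 and at 1.68 times within FA0, a comparison that needs no scaling between the libraries.

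Mael (Maelstrom, an HMG-box protein of the germ granules needed for transposon silencing in the male germline, ENSMUSG00000040629, chromosome 1 from 166201201 to 166238747) differed most on the scale with the pseudocount. It reached 19.5 FPKM in FA4 as against 6.81 in FA0, from 634 and 209 reads. It was 2.86-fold lower in FA0 (2.44 to 3.36). Within each library, its FPKM was 1.19 times that of Piwil2 in FA4 and 0.511 times in FA0. The stretch printed for Mael ends right before the first base of the gene in GENCODE.

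The 4 Tudor proteins named Tdrd or Tdrkh were mostly scarce, with Tdrd12 the exception. Tdrkh (a Tudor protein anchored on mitochondria that takes part in trimming the ends of piRNAs, ENSMUSG00000041912, chromosome 3 from 94413273 to 94434668) stood at 1.34 FPKM in FA4 against 0.377 in FA0, from 155 and 41 reads. It was 3.56-fold lower (2.51 to 5.15), a ratio close to that of Piwil4, with both intervals wide. Tdrd1 (a partner of MILI in germ granules, ENSMUSG00000025081, chromosome 19 from 56826209 to 56870012) was measured at 0.664 FPKM in FA4 and at 0.301 in FA0, from 68 and 29 reads, and was 2.21-fold lower (1.41 to 3.54). Tdrd7 (a protein of the chromatoid body of male germ cells that is also needed in the lens, ENSMUSG00000035517, chromosome 4 from 45965334 to 46034761) reached 0.887 FPKM in FA4 as against 0.828 in FA0, from 66 and 58 reads. Its fold lower of 1.07 had an interval of 0.741 to 1.55, so a difference in either direction was not detectable at this depth. Tdrd12 (a helicase-like Tudor protein needed for the piRNAs bound by MIWI2, ENSMUSG00000030491, chromosome 7 from 35469098 to 35537745) went the other way, at 5.58 FPKM in FA4 as against 8.11 in FA0. Its ratio was 1.45 (1.29 to 1.65) from 455 and 623 reads. Tdrd12 stood at 4.16 times Tdrkh within FA4 and at 21.5 times within FA0.

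**Figure D2:**
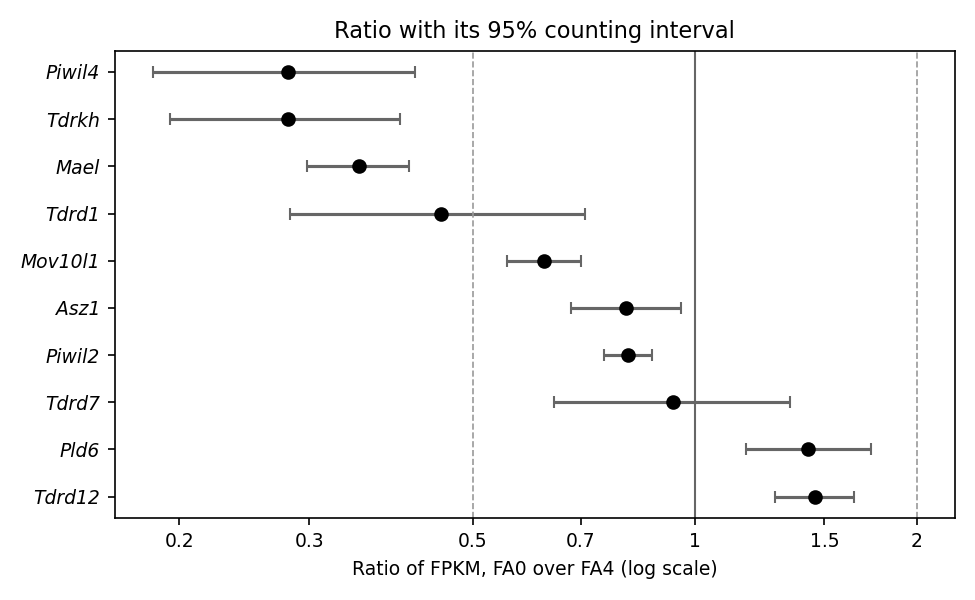
Ratio of FPKM in FA0 over FA4 (log axis) for each of the 10 genes, with bars for the 95% counting interval, a solid line at equal levels and dashed lines at 2-fold in each direction. The intervals of Piwil4, Tdrkh and Mael end below the 2-fold line, that of Tdrd1 crosses it, that of Tdrd7 crosses equal levels, and those of Pld6 and Tdrd12 lie above equal levels.

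Counted over all 10 genes, 8 were lower in FA0 and 2 were higher, and of the 8 that reached an FPKM of 1 there were 6 lower and 2 higher. Over the 14345 genes that reached it, 44.3% were lower and 55.7% were higher. The counting interval of the ratio lay below equal levels for 7 of the 10, above for 2 and held equal levels for 1 (Tdrd7). Among the 8 it lay below for 6 and above for 2, against 25.8% of the 14345 genes below and 34.4% above, since such intervals are narrow for well-sequenced genes. By the FPKM ratio, 4 of the 10 were at least 2-fold lower (Mael, Tdrkh, Piwil4 and Tdrd1) and none was at least 2-fold higher. Among the 8 genes that reached an FPKM of 1 there were 3, against 3.11% of all 14345 genes at least 2-fold lower and 7.31% at least 2-fold higher. Tdrkh and Piwil4 reached the minimum through FA4 alone, so they had to be lower in FA0 to some degree. The counts among the 8, by direction, by interval and by 2-fold ratio, therefore carry no more than the values themselves. Low genes also pass a 2-fold ratio more often, with 6.35% of the 6082 genes at a mean FPKM under 5 at least 2-fold lower against 0.840% of the 5122 genes at 5 to 20, the range that holds Mael.

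A pseudocount damps the low genes. The change was the log2 ratio, FA0 to FA4, of FPKM with 1 added to each, a scale that understates the change of genes of low FPKM. On it Mael had -1.39, Tdrkh -0.77, Piwil4 -0.72, Mov10l1 -0.60, Tdrd1 -0.36, Piwil2 -0.28, Asz1 -0.26, Tdrd7 -0.05, Pld6 0.45 and Tdrd12 0.47. Only Mael passed a change of 1 in size. Of the 14345 genes 1.32% were lower and 2.99% higher by this limit, and 0.481% had a change at or below that of Mael. The median change of all 10 genes was -0.32 against 0.03 over all 28839 genes, and that of the 8 genes with an FPKM of at least 1 was -0.44 against 0.05. Tdrkh and Piwil4 are among the 8 through FA4 alone, which pulls that median down. With a minimum FPKM of 5, which leaves 6 genes, the median was -0.27.

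**Figure D3:**
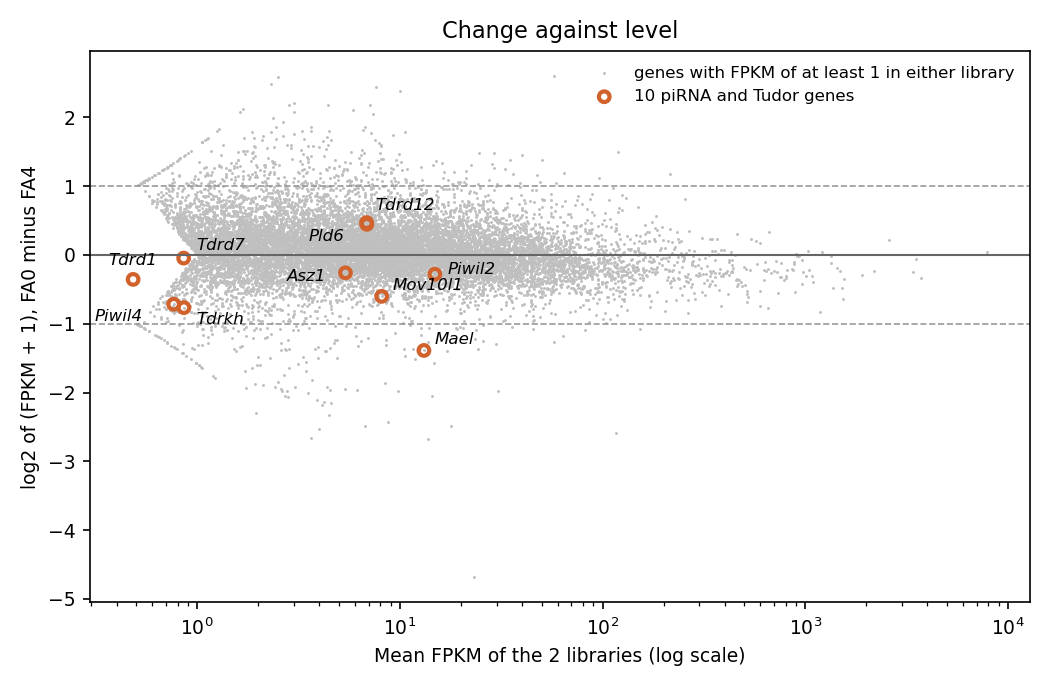
Change between libraries, as log2 of (FPKM + 1) in FA0 minus FA4, against the mean FPKM of the 2 libraries (log axis), for the 14345 genes with an FPKM of at least 1 in either library (grey dots) and the 10 genes (orange rings), with dashed lines at changes of 1 and -1. Mael is the ring below the lower line, Pld6 and Tdrd12 lie on top of each other above 0, and Tdrd1 and Tdrd7 stand outside the grey dots because they did not reach the minimum.

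The 10 genes lie on 10 different chromosomes. The nearest expressed protein-coding gene on each side gave 20 neighbours, of which 10 had a change below 0 and 10 above 0, with a median of 0.01 and a range of -0.52 to 0.96. None of the 20 passed a change of 1 in size, against 1.32% of the 14345 genes lower and 2.99% higher. The pseudocount in that change damps low genes. By the FPKM ratio, Gm4778 next to Tdrkh was more than 2-fold lower, at 1.03 FPKM in FA4 against 0.410 in FA0. Afap1l2 next to Tdrd1, at 1.62 and 3.41, and Slc39a14 next to Piwil2 were more than 2-fold higher. Over the 14345 genes, 3.11% were at least 2-fold lower and 7.31% higher by that ratio. Next to Mael, Gpa33 stood at 43.8 FPKM in FA4 against 41.1 in FA0, and Tada1 had 1.86 and 1.40. Next to Piwil2, Slc39a14 (a zinc and iron transporter) was measured at 8.31 FPKM in FA4 and at 17.1 in FA0. Some genes overlap others, and reads of both cannot be told apart where counting does not use strand, which the sources used here do not state. Gm10706 lies antisense to Piwil4 and reached 0.0814 FPKM in FA4 as against 0 in FA0, and Gm18558, a pseudogene on the strand of Tdrd12, had 0.307 and 0.372.

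The other genes of the pathway had changes in both directions, more of them below 0 than above. Of 14 other piRNA factors, 11 reached an FPKM of 1 in either library. Of these 11, 8 were below 0 and 3 above, against 44.3% of the 14345 genes below 0. The counting interval lay below equal levels for 5 and above for 1, against 25.8% and 34.4% of the 14345 genes. The median change was -0.05 over all 14. None passed a change of 1 in size, against 1.32% of the 14345 genes lower and 2.99% higher. With shares that small, a list this short can hold none without differing from all genes. The lowest changes were those of Gpat2 and Ddx4. Gpat2 (a mitochondrial protein that binds MILI) stood at 26.1 FPKM in FA4 against 16.9 in FA0, and was 1.55-fold lower (1.42 to 1.69). Ddx4 (Vasa, the helicase of germ granules) was measured at 6.79 FPKM in FA4 and at 4.27 in FA0, and was 1.59-fold lower (1.35 to 1.88). Henmt1 (which methylates the ends of piRNAs) was scarce, with 28 reads in FA4 and 10 in FA0, and was 2.64-fold lower (1.24 to 6.08). Morc1, which takes part in transposon silencing in male germ cells, was the one with the highest change, at 33.5 FPKM in FA4 as against 57.7 in FA0 and a ratio of 1.72 (1.66 to 1.79). Pnldc1, the nuclease that trims piRNA ends beside Tdrkh, reached 20.5 FPKM in FA4 as against 20.3 in FA0. Dnmt3l, the cofactor of DNA methylation that acts after MIWI2, stood at 202 FPKM in FA4 against 197 in FA0.

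Of 11 other genes with Tudor domains, 10 were in the table and 8 reached an FPKM of 1 in either library. Of these 8, 6 were below 0 and 2 above, against 44.3% of the 14345 genes below 0. The counting interval lay below equal levels for 4 and above for 1, against 25.8% and 34.4% of the 14345 genes. The median change was -0.13 over the 10. None was past 1 in size, against 1.32% of the 14345 genes lower and 2.99% higher. Stk31, a Tudor protein of germ cells, was measured at 13.3 FPKM in FA4 and at 8.13 in FA0, and was 1.63-fold lower (1.45 to 1.83). Snd1, a Tudor protein of all cell types, had 15.7 and 11.3, and Smn1, which assembles spliceosomal particles, had 35.3 and 27.0. Akap1, which sits on mitochondria in most cells, was higher, at 41.9 FPKM in FA4 as against 47.9 in FA0. The remaining germline Tudor genes were scarce or level, with Rnf17 at 11.3 and 10.6, Tdrd9 at 2.33 and 2.17 and Tdrd5 at 0.544 and 0.309. Prmt5 and Wdr77, which together make the methylated arginines that Tudor domains bind, had changes of -0.11 and -0.13, from FPKM of 33.0 and 34.1 in FA4.

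The Argonaute and microRNA genes, the small RNA pathway found in all tissues, had a median above 0. Of 10 genes, 9 reached an FPKM of 1 in either library, 8 of them above 0 and 1 below, against 55.7% of the 14345 genes above 0, with a median of 0.34 over the 10. Ago2, the Argonaute that cleaves its targets, was the one past a change of 1 in size. Over the 14345 genes, 2.99% were higher and 1.32% lower by this limit. Ago2 was also selected as changed by the study, at 12.4 FPKM in FA4 as against 27.0 in FA0. Its ratio was 2.18 (2.09 to 2.27). Mov10, the somatic relative of Mov10l1, reached 19.4 FPKM in FA4 as against 31.9 in FA0, with a ratio of 1.64 (1.56 to 1.74). Mov10 and Mov10l1 thus differed in opposite directions between the same libraries. Drosha and Dgcr8, which cut microRNA precursors in the nucleus, had FPKM of 27.7 and 9.50 in FA4 and 41.5 and 16.2 in FA0. Dicer1, the cytoplasmic enzyme, had a change of 0.03, and Tarbp2, its partner, stood at 24.5 FPKM in FA4 against 19.4 in FA0.

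**Figure D4:**
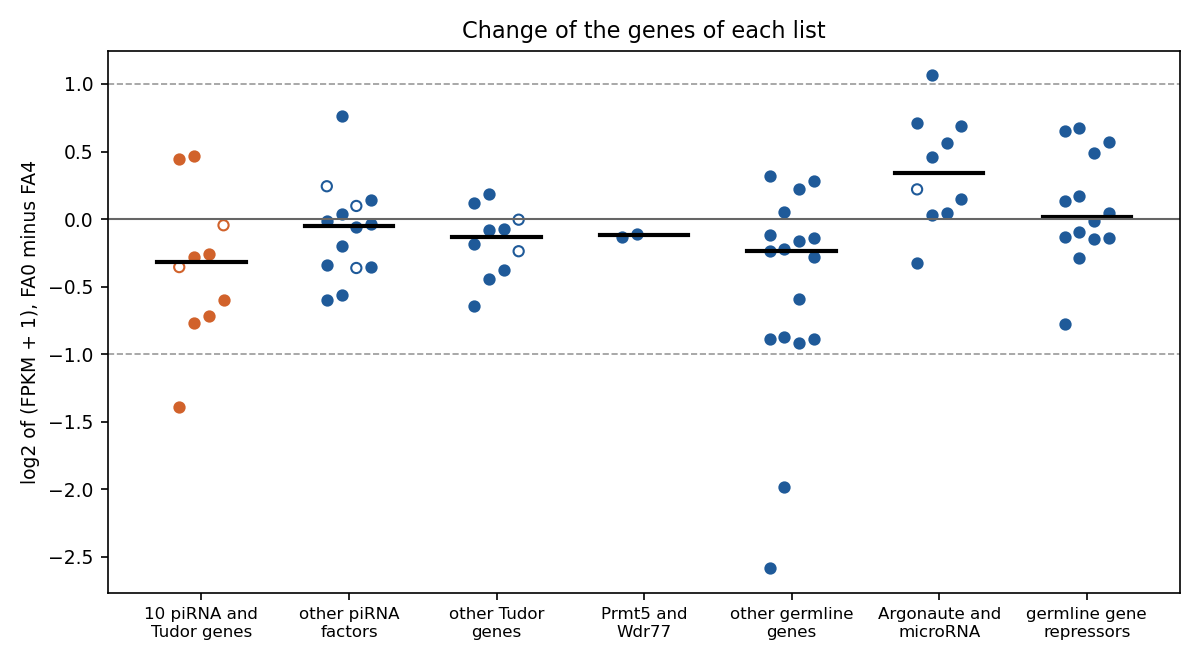
Change of each gene, as log2 of (FPKM + 1) in FA0 minus FA4, by list, with filled points for an FPKM of at least 1 in either library, open points for the rest, a bar at the median of all measured genes and dashed lines at 1 and -1. The median of the 10 genes is -0.32, that of the other piRNA factors -0.05, that of the other Tudor genes -0.13 and that of the Argonaute and microRNA genes 0.34.

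Other germline genes, which act in meiosis and germ cell identity, are described beside the group. This list was also chosen with earlier results of these libraries known, so it is not an independent background. Of 17 genes all reached an FPKM of 1 in either library, 13 were below 0 and 4 above, against 44.3% of the 14345 genes below 0, and the median change was -0.24. Stra8 and Meioc were past a change of 1 in size, both lower in FA0, against 1.32% of the 14345 genes lower and 2.99% higher. Both were also selected as changed by the study on these libraries. By the FPKM ratio 4 of the 17 were at least 2-fold lower (Stra8, Meioc, Rec8 and Tex11) and none at least 2-fold higher. Over the 14345 genes these shares were 3.11% and 7.31%. Rec8 had 3.26 FPKM in FA4 and 1.33 in FA0, and Tex11 had 7.56 and 3.54. Stra8, the inducer of meiosis, was measured at 201 FPKM in FA4 and at 32.6 in FA0, and Meioc, which prolongs meiotic prophase, had 16.3 and 3.38. Dazl, an RNA-binding protein of germ cells, had 34.6 and 29.5. Mael was therefore below the median of the germline list, and Tdrd12 and Pld6 were above its highest change of 0.32.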

How the data were processed

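Total RNA of 1 FA4 and 1 FA0 culture of Sv129 mESCs was sequenced. The authors deposited FPKM for each gene after alignment to mm10. Programs listed by the submitters' processing notes are DESeq 1.28.0, HISAT2 2.1.0 and StringTie 1.3.3b. For strand and reads with several hits, the handling was not given in the sources used here. No column of another sample was present.

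FPKM was multiplied by merged exon length in GENCODE M21 (the same build) to recover reads. Of the values up to 20 reads, 97.9% of 10742 in FA4 and 98.1% of 11442 in FA0 were whole numbers to within 0.05, giving scaling totals of 18807084 and 17704465. Both totals are below the reads summed over genes, 19534465 and 18367718, and what the totals count was not given in the sources used here. A length was missing for 39 genes. Exact conditional (Clopper-Pearson) intervals at 95% were taken for read ratios per scaling total and exact Poisson intervals for levels. The change was log2 of (FPKM + 1) in FA0 over FA4, taken for every gene, and called at 1 in size. Calls and shares over all genes were restricted to genes reaching FPKM 1 in a library. Medians were taken over all measured genes or over the genes reaching it, as stated with each. No test was possible with 1 library per condition. Alternatives were a pseudocount of 0.1 or 0.5, TPM, rescaling by the median ratio, no minimum and a minimum FPKM of 5.

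All 10 genes are named, and genes of the other lists could be named without a limit. Genes and lists were chosen with earlier results of these data known. Promoters are from RefSeq (GRCm38.p6), matched by symbol for 9 of the 10 genes, and motifs were searched on both strands. Calculations used Python 3.11.15 with numpy 2.4.6, pandas 2.3.3, scipy 1.17.1 and matplotlib 3.10.9, and were tested on simulated data.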

Additional observations from a re-analysis of the deposited data

How the results depend on the processing

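Each of the 10 genes kept one sign of change under all alternatives. A pseudocount of 0.1 gave Tdrkh -1.60, Piwil4 -1.57 and Tdrd1 -0.93, a pseudocount of 0.5 gave -1.07, -1.02 and -0.54, and TPM gave -1.18, -1.14 and -0.61. Under these 3 alternatives 3 genes (Mael, Tdrkh and Piwil4) were lower by a change of at least 1, in place of 1 (Mael). These 3 were counted among 8 genes with either pseudocount and among 10 on TPM. The calls lower over the 14345 genes rose too, from 190 to 409 with a pseudocount of 0.1 and 279 with 0.5. On TPM they were 599, among the genes that reached a TPM of 1. Tdrkh and Piwil4 reached the minimum FPKM through FA4 alone. A pseudocount weighs less on TPM by construction, since TPM values are larger than FPKM. Mael ranged from -1.5002 to -1.38 and Mov10l1 from -0.67 to -0.57, while Tdrd12 ranged from 0.47 to 0.59. The median change was -0.32 with no minimum and -0.27 with a minimum of 5, for 10 and 6 genes. Rescaling by the median ratio (0.994) moved no change or median beyond counting error, and the calls over all genes were then 190 and 437. Over all genes the calls lower and higher, 190 and 429, became 409 and 951 with a pseudocount of 0.1, 279 and 659 with 0.5, 599 and 1529 on TPM and 80 and 195 with a minimum of 5, and the median change was 0.15 on TPM against 0.05. No paired analysis was possible because each condition has 1 library, and for the same reason no replicate could be left out. Depth limits Tdrd1, Tdrd7, Piwil4 and Tdrkh most, with 29 to 58 reads in FA0.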

Other observations

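The 14 genes listed as repressors of germline genes in mESCs comprise the Polycomb complex with E2F6 and its partners, Cbx3 included. They also comprise DNA and histone methylation enzymes and Zfp42. Whether each of them represses germline genes in these cells was not tested. They were split evenly, with 7 below and 7 above 0 and a median change of 0.01. None was past 1 in size, against 1.32% of the 14345 genes lower and 2.99% higher. Dnmt3b, a DNA methyltransferase, reached 15.0 FPKM in FA4 as against 24.5 in FA0. By quantitative PCR the paper reported the opposite direction, with lower Dnmt3b mRNA in folate-deficient mESCs. Setdb1, a histone methyltransferase of transposon silencing, had 22.1 FPKM in FA4 and 33.3 in FA0. Zfp42, a zinc finger protein that is also among the embryonic stem cell markers, had the lowest change, at 824 FPKM in FA4 as against 480 in FA0. E2f6 itself had 7.99 and 8.27.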
